A study of Mus musculus with 18 samples.

Results

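Trimethylation of histone H3 at lysine 4 (H3K4me3) was compared between the islets of Men1 knockout and control mice at domains that formed 1 continuous peak in the control list and several peaks in the knockout list. Such domains numbered 543 of the 21215 autosomal control peaks (2.56%, exact 95% interval 2.35 to 2.78). They were chosen by the deposited peak positions: a control peak was a member when it overlapped 2 or more knockout peaks by at least 1 bp. The opposite arrangement, 1 knockout peak over 2 or more control peaks, was met by 152 of the 20752 autosomal knockout peaks (0.732%, interval 0.621 to 0.858). Because the overlap of both lists defines the members, their number, gaps and lost length are described and not tested.

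The groups were pancreatic islets of 2-month-old mice with an islet-specific Men1 knockout and islets of RIP-Cre mice of the same age, which carry Cre recombinase named for the rat insulin promoter. All animals were of mixed strain (FVB/N, C57BL/6 and 129s6), and each genotype was represented by 1 H3K4me3 ChIP-seq library, in which DNA bound by an antibody against the mark is sequenced. The labels do not say how many animals a library holds, and the other 16 samples of the series (inputs, H3K27me3, and the ages of 6 and 12 months) were not analysed here. Whole islets hold several hormone cell types, so a mark lost in some cells and a mark lowered in all of them cannot be told apart.

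H3K4me3 marks the nucleosomes around the start sites of active and poised genes, and at genes that define a cell type it often spreads into broad domains. Menin, the product of Men1, is a subunit of the MLL1 and MLL2 methyltransferase complexes, which place methyl groups on this lysine, and its loss in beta cells leads to insulin-producing tumours in mice. A peak caller joins enriched windows into 1 peak and ends it where the enrichment drops below its threshold. A gap between knockout peaks is therefore a stretch that did not pass the threshold in that library, and it is not a measurement of absent H3K4me3.

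Most split domains were cut once, by a short gap. Of the 543 domains, 515 held 2 knockout peaks, 24 held 3 and 4 held 4, with 575 gaps in all. The median gap was 93 bp (95% interval 84 to 108, quartiles 43 and 174.5), and gaps ranged from 1 to 1279 bp. In 446 cases (77.6%) the gap was under 200 bp, which is about the stretch of DNA held by a nucleosome and its linker. A gap of 10 bp or less occurred 33 times. At the long end, 19 gaps measured 500 to under 1000 bp and 9 were longer.

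The gap lay inside the domain more often than at its ends. The centre of the longest gap was a median of 29.7% of the control width from the nearer border (interval 27.7 to 31.7), or 841.5 bp. It fell between 33.3 and 66.7% of the width, here called the middle, in 229 domains (42.2%) and within 20% of a border in 145 (26.7%). In steps of 20% of the width, from the domain's start to its end on the chromosome, the counts were 72, 146, 133, 119 and 73. The outermost steps were thus the least often cut, and the left and right sides were alike, with 283 centres (52.1%, interval 47.8 to 56.4) left of the domain's centre. A called fragment has a minimum width, the narrowest here being 335 bp, so a gap centred very near a border requires a fragment that reaches beyond it.

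**Figure D1:**
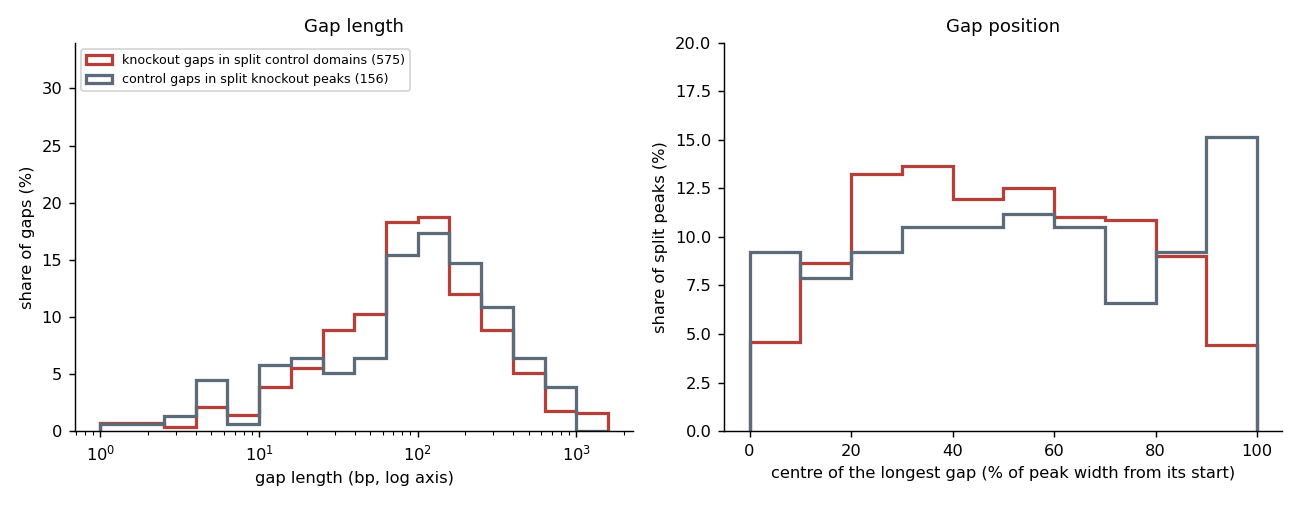
Left, gap length in bp on a log axis, as the share of 575 knockout gaps within split control domains and of 156 control gaps within split knockout peaks. Right, centre of the longest gap in percent of the peak's width from its start, as the share of 543 and 152 split peaks. Gap lengths of both cases centre near 100 bp, and knockout gaps are least frequent in the outermost bins.

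The 4 domains with 4 knockout peaks differed in control width, from 2542 to 5573 bp, and in control score, from 975 to 2692. Of the 24 domains tied at 3 knockout peaks, only the widest is named with them. It was 17858 bp wide, scored 3100 and was taken because ties went to the wider peak. The authors' score for each peak, on a scale that the lists do not state, is near 60 at its lowest in both lists, and many peaks are tied at 3100. A score can depend on read depth, which is unknown, so scores of a knockout and a control peak set side by side are not a difference in H3K4me3. On chromosome 4 (61851398 to 61856325 in mm9) knockout peaks of 1750, 777, 792 and 1040 bp with scores of 501, 105, 112 and 141 lay over a control peak that was 4928 bp wide and scored 975. Their gaps were 159, 216 and 5 bp, and they retained 76.9% of the control length. On chromosome 10 (78526881 to 78531587) knockout peaks of 477, 1955, 1239 and 692 bp lay over 1 control peak, which was 4707 bp wide and scored 1019. The gaps there were 65, 128 and 29 bp and 92.7% of the control length was retained, so this domain was cut 3 times with little loss of length. On chromosome 13 (23634374 to 23636915) 4 knockout peaks of 343 to 920 bp lay over a control peak of 2542 bp, with gaps of 36, 32 and 144 bp.

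The longest gaps removed a larger piece. The longest total gap, 2036 bp, was on chromosome 2 (26440828 to 26446400), where 4 knockout peaks had scores of 1606, 66.5, 67.8 and 67.7 over a control peak that was 5573 bp wide and scored 2692. A knockout peak of 2509 bp covered the start of this domain, and the rest was left with 3 peaks of 539 to 553 bp close to the lowest score of the list. The widest member, on chromosome 13 (117086937 to 117104794), had knockout peaks of 1466, 834 and 13783 bp over a control peak of 17858 bp. Its second gap, 1205 bp, lay 17.8% from the start, and the knockout peaks kept 90.1% of the control length. On chromosome 11 (103221212 to 103225375) knockout peaks of 1076 and 1409 bp, with scores of 727 and 955, flanked a gap of 1193 bp in a control peak that was 4164 bp wide and scored 2334. Here both pieces scored well above the lowest value and the gap lay near the centre, at 43.4% of the width.

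A further pair of long gaps lay near a border. On chromosome 3 (57228204 to 57234229) a knockout peak 4638 bp wide, scoring 3100, was followed after 1179 bp by a peak of 752 bp, scoring 72.3, that overlapped the control peak by only 91 bp. On chromosome 10 (44174444 to 44179397) knockout peaks of 524, 611 and 2839 bp had scores of 61.3, 69.1 and 3100, and gaps of 1107 and 16 bp. Both control peaks scored 3100, and in both domains the main knockout peak did too.

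Some domains were cut although every piece had a high score. In 11 domains (2.03%) each knockout peak scored 3100 or more, and the median total gap among them was 87 bp. The widest of these was on chromosome 10 (96078486 to 96085638), with knockout peaks of 3418 and 3539 bp, a gap of 36 bp and 97.3% of the 7153 bp control peak retained. On chromosome 9 (56918946 to 56925809) knockout peaks of 4908 and 1718 bp were separated by 117 bp. Knockout peaks of 2862 and 2121 bp on chromosome 6 (54541135 to 54546629) were separated by 187 bp. The domain on chromosome 17 (36051865 to 36057308) had a gap of 138 bp, and the one on chromosome 16 (30062717 to 30068046) a gap of 52 bp. These 5 domains, the widest of the 11, kept 90.7 to 97.3% of the control length. The median over all 11 was 92.9%. Narrower ones among them kept less on chromosome 10 (80597010 to 80602263, 81.7%) and chromosome 12 (72114781 to 72118878, 83.3%).

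Domains with a total gap nearest to the median of 99 bp differed widely in size. The widest, on chromosome 3 (130966696 to 130975718), had knockout peaks of 868 and 7119 bp, with scores of 100 and 3100, over a control peak of 9023 bp. Another on the same chromosome (90279115 to 90281338) had knockout peaks of 777 and 1187 bp over 2224 bp of control. The last, on chromosome 19 (57485865 to 57487426), had knockout peaks of 1288 and 621 bp over a control peak of 1562 bp and reached beyond it on both sides.

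**Figure D2:**
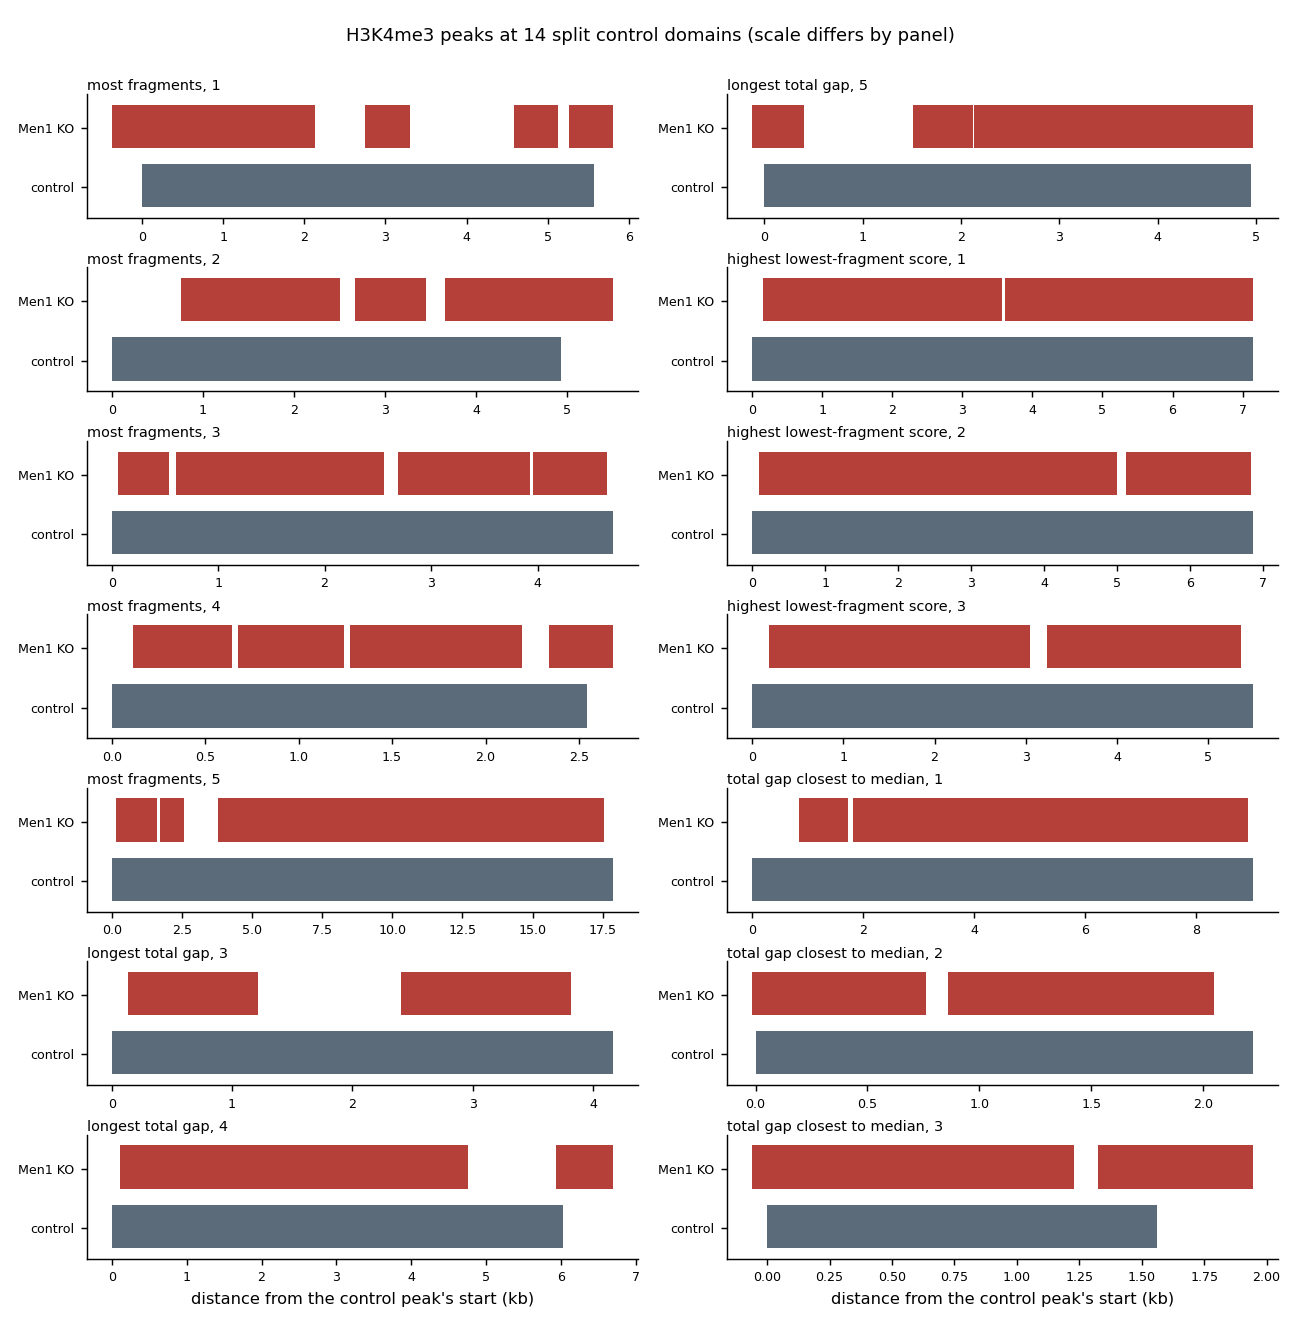
Peak maps of 14 split domains in kb from the start of the control peak, with Men1 knockout peaks (red) above the control peak (grey). They are ordered by most knockout peaks, longest total gap, highest score of the lowest-scoring fragment, and total gap closest to the median. Gaps under about 50 bp are hardly visible at this scale, such as the last gap of 5 bp in the second map.

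The knockout peaks of a split domain were usually unequal. The widest knockout peak measured a median of 1924 bp and the narrowest 760 bp, and the widest made up 67.5% of the summed knockout width (interval 66.0 to 68.9). In 389 domains (71.6%) the narrowest piece was under 1 kb wide. A near-even cut, with the widest piece under 60% of the sum, was seen in 150 domains (27.6%), and a piece of 80% or more in 112 (20.6%). In all, the domains held 1116 knockout peaks, or 5.38% of the autosomal knockout list.

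Scores differed in the same way as widths. The highest-scoring knockout peak of a domain had a median score of 2781 (interval 2469 to 3100), and the lowest-scoring 127 (interval 116 to 141). The lowest score was under 100 in 202 domains (37.2%) and 1000 or more in 57 (10.5%). Of all knockout peaks in the domains 20.3% scored under 100, against 11.7% of the autosomal knockout list. The narrowest piece also had the lowest score, ties included, in 501 domains (92.3%). Where the weakest piece scored 1000 or more, the gap lay in the middle of 42 domains (73.7%), and where it scored under 100, in 58 (28.7%). A gap nearer a border tends to leave a narrower piece, and the narrowest piece was mostly also the weakest. Gap position and lowest score are thus not independent here, and the domains were not sorted into kinds.

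**Figure D3:**
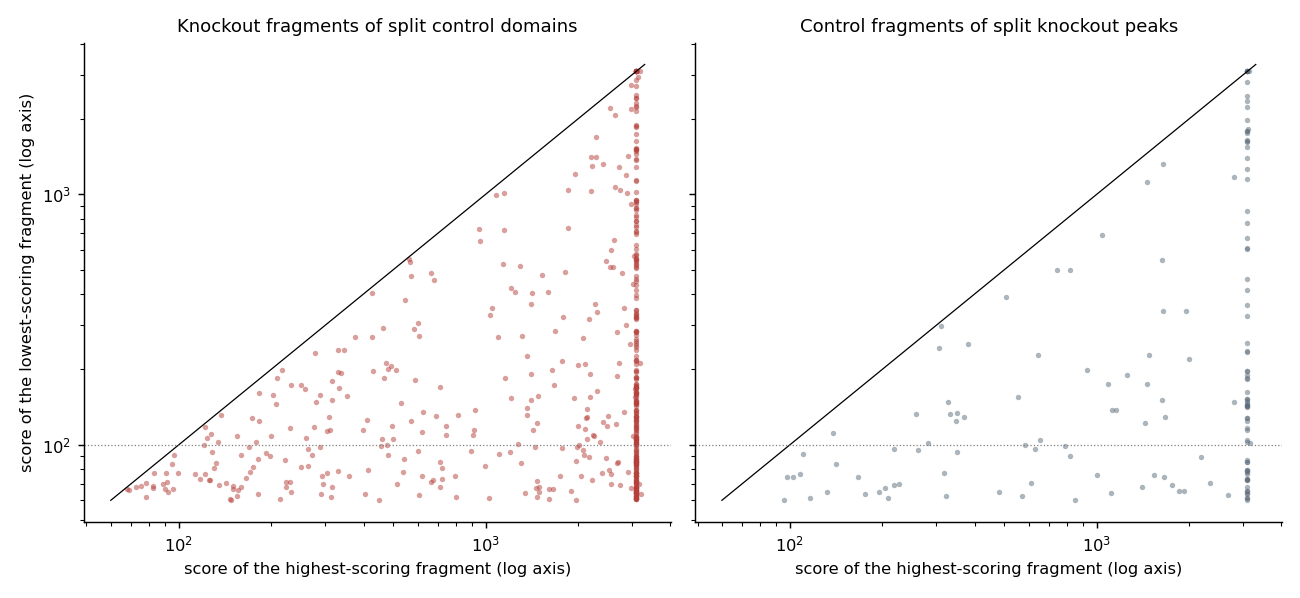
Score of the lowest-scoring against the highest-scoring fragment, log axes, for the knockout fragments of 543 split control domains (left) and the control fragments of 152 split knockout peaks (right). The diagonal marks equal scores and the dotted line a score of 100. The column of points at 3100 is the tied score, and 37.2% of the points on the left and 38.8% on the right lie below 100.

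Split domains kept less of the control length than unsplit peaks of the same width class. Knockout peaks covered a median of 89.1% of a split control peak (interval 88.2 to 90.4, quartiles 82.8 and 94.5, lowest 44.5). In the 17716 one-to-one pairs, where 1 knockout and 1 control peak overlapped only each other, the median was 90.5% (interval 90.3 to 90.7). These pooled medians set wide split peaks against narrower unsplit ones, and wide peaks of both kinds retained more. From 1 to 2 kb the medians were 88.0% in split domains and 88.6% in one-to-one pairs, and from 2 to 3 kb 87.6% and 91.7%. They were 90.9% and 92.3% from 3 to 4 kb, 91.4% and 93.5% from 4 to 6 kb, and 92.7% and 96.1% at 6 kb and wider. The median was thus lower in split domains in each of these classes, as it was under 1 kb (83.4% and 87.6%). Only split domains can lose length in gaps, so the rule itself adds to their loss, and the difference was not tested. Over all split domains, 1590 of 1813 kb were retained (87.7%), while 89.4 kb (4.93%) lay in gaps and 133 kb (7.35%) was lost at the outer borders. Gaps therefore made up 40.2% of the lost length, and exceeded the border loss in 236 domains (43.5%). The one-to-one pairs, which have no gaps, retained 88.6% of their length and lost 11.4% at the borders.

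The loss at the outer borders was smaller in split domains of each width class. The median border loss was 149 bp (interval 126 to 174) in split domains and 180 bp (interval 178 to 183) in one-to-one pairs. For control peaks of 4 to 6 kb it was 182 and 295 bp, and for those of 2 to 3 kb it was 174 and 199 bp. The outer span, measured from the start of the first knockout peak to the end of the last, had a median of 98.0% of the control width (interval 96.9 to 98.9). Knockout peaks of one-to-one pairs had 92.5% (interval 92.3 to 92.7). A second knockout peak at an end can only extend the span, so the rule itself favours a wide span, and this difference was not tested.

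**Figure D4:**
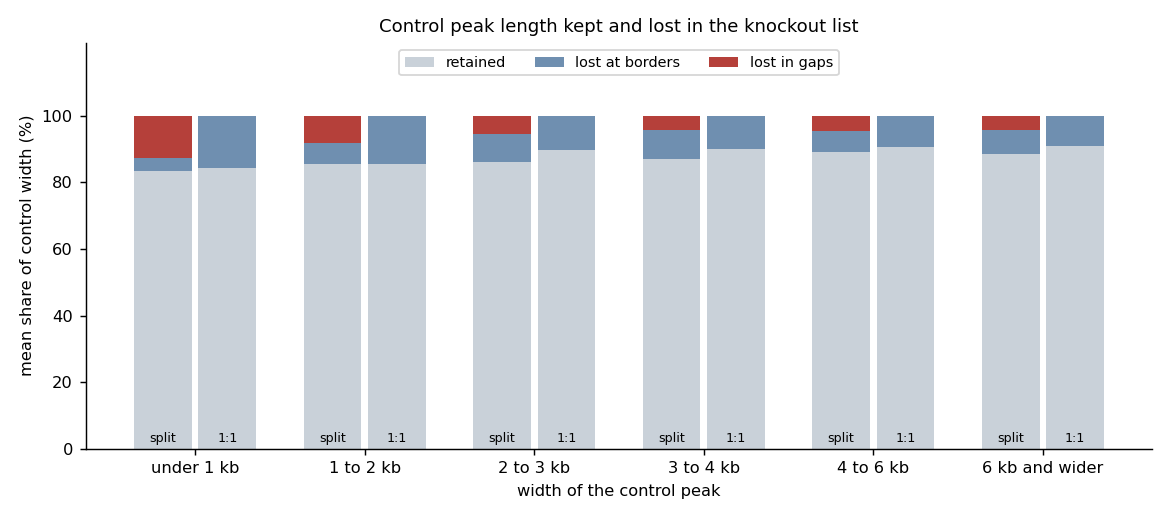
Mean share of the control peak's width that was covered by knockout peaks, lost at the outer borders or lost in gaps, in percent, by control width. The left bar of each pair shows split domains and the right bar (1:1) shows one-to-one pairs. The mean retained share of split domains is lower in each class, for example 86.0% against 89.9% from 2 to 3 kb, and only the split domains, by their definition, have a loss in gaps.

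Not every member was a domain cut from within. In 203 domains (37.4%) all knockout peaks lay inside the control peak, and these had a median control width of 3287 bp and a retained length of 85.0%. Knockout peaks reached past 1 border in 227 domains (41.8%) and past both in 113 (20.8%), where the median control width was 2544 bp and 96.2% was retained. The farthest case was on chromosome 5 (139235693 to 139237103), singled out after its values were seen, where knockout peaks of 6451 and 550 bp met a control peak that was 1411 bp wide and scored 153. In 50 domains (9.21%) a knockout peak also overlapped another control peak. For narrow control peaks the word split is thus not apt: the 11 members under 1 kb wide had an outer knockout span of 265% of the control width at the median.

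Split control peaks were wide. Their median width was 3037 bp (interval 2903 to 3196, range 567 to 17858), against 1769 bp for all autosomal control peaks, and 438 of the 543 were at least 2 kb wide. The share of control peaks that were split was 0.249% under 1 kb, 1.18% from 1 to 2 kb and 2.69% from 2 to 3 kb. It was 6.59% from 3 to 4 kb, 14.9% from 4 to 6 kb (interval 12.5 to 17.6) and 20.9% at 6 kb and wider (31 of 148 peaks, interval 14.7 to 28.4). A wider peak offers more room for a second peak, so a higher share at larger widths belongs to the rule. Split knockout peaks were likewise more frequent among wide peaks, but at lower shares in each class: 0.692% from 2 to 3 kb, 1.86% from 3 to 4 kb, 4.59% from 4 to 6 kb and 9.43% at 6 kb and wider (10 of 106). Under 1 kb the shares were close, at 0.249% of control peaks and 0.227% of knockout peaks. These counts come from the rule itself, and the difference between the directions was not tested.

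**Figure D5:**
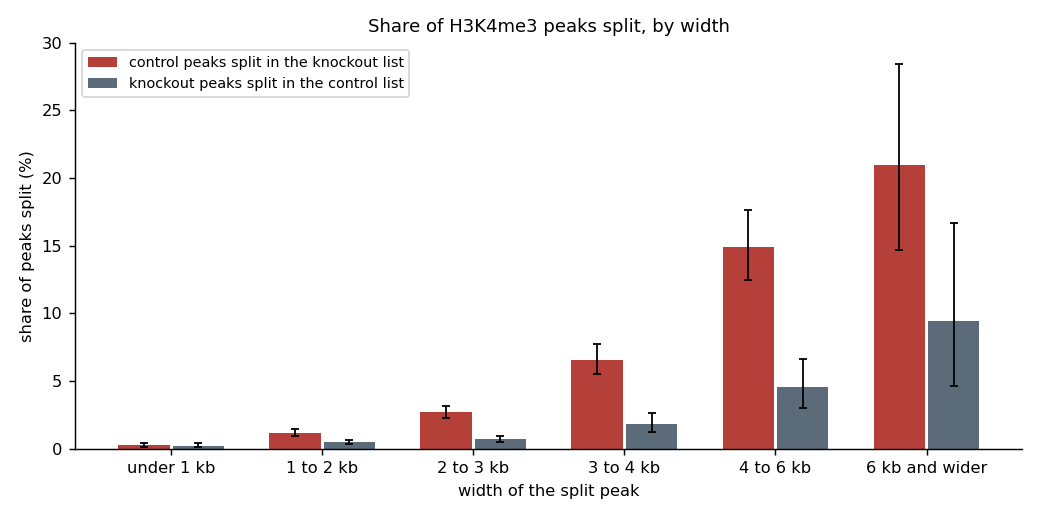
Share of autosomal peaks split in the other list, in percent, by the width of the peak, for control peaks split in the knockout list (red) and knockout peaks split in the control list (grey). Bars carry exact 95% binomial intervals. In both directions the share is highest in the widest class, at 20.9% and 9.43%.

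Over all widths, the share of control peaks that were split rose with the control score, from 0.324% under 100 to 3.41% at 3100 or more. Within the width classes the relation ran the other way: fewer split than unsplit control peaks had a score at the tied value. A score of 3100 or more was found for 46.8% of split and 82.2% of one-to-one control peaks of 2 to 3 kb. From 3 to 4 kb the shares were 72.0% and 93.2%, and from 4 to 6 kb 86.3% and 98.3%. Seen from the other side, of the 1132 control peaks of 2 to 3 kb that scored under 3100, 84 (7.42%, interval 5.96 to 9.10) were split, against 1.56% of the 4738 that scored 3100 or more (interval 1.23 to 1.96). From 3 to 4 kb the shares were 22.3% (37 of 166) and 5.17% (95 of 1837), and from 4 to 6 kb 57.1% (16 of 28) and 13.4% (101 of 756). Scores under 3100 were not divided further within a width class, and the median score of split domains of 2 to 3 kb was 2834. In these width classes, control peaks that scored under 3100 were thus more often split than those at 3100 or more. This relation holds within the control list's own width and score, but splitting itself was read from the overlap of both lists, and no test was made.

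Gaps were longest in the widest domains. The median total gap was 73.5 bp in control peaks of 1 to 2 kb, 93.5 bp from 2 to 3 kb and 90 bp from 3 to 4 kb, against 117 bp from 4 to 6 kb and 206 bp at 6 kb and wider. The 11 domains under 1 kb had a median of 91 bp. Single domains varied widely around these medians: the Spearman correlation over the 543 domains, which come from a single pair of libraries, was 0.18 between control width and total gap and -0.01 between control score and total gap. The median total gap was 130.5 bp where the weakest piece scored under 100, 97 bp from 100 to under 300, and 75.5 bp from 300 to under 1000. It was 108.5 bp from 1000 to under 3100 (46 domains) and 87 bp at 3100 or more (11 domains), so the medians followed no steady order with this score. Total gaps under 50 bp left a median of 94.2% of the control length and those of 500 bp or more left 75.0%. The 28 domains with gaps of 500 bp or more were also wide, with a median control width of 4726 bp.

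The reverse case had gaps of similar length that lay nearer the borders. The 152 split knockout peaks held 156 gaps, with a median of 107 bp (interval 91 to 137) and a longest of 786 bp, and 110 of the gaps (70.5%) were under 200 bp. The longest gap was centred within 20% of a border in 63 split knockout peaks (41.4%), where the split control domains had 26.7%. In steps of 20% of the width the counts were 26, 30, 33, 26 and 37. Left of the peak's centre lay 72 gap centres (47.4%, interval 39.2 to 55.6), so the sides were alike here too. The median distance to the nearer border was 24.8% of the width. The split knockout peaks' median width was 2705 bp against 1631 bp for all autosomal knockout peaks. The lowest-scoring control fragment had a median score of 134, and it scored under 100 in 59 peaks (38.8%). This score and share are near those of the split control domains. The cases differed in their surroundings: the control peaks lay wholly inside the knockout peak in 16 cases (10.5%) and reached past both borders in 82 (53.9%), where the split control domains had 37.4% and 20.8%. Control peaks covered a median of 92.7% of a split knockout peak, and its control fragments spanned 114% of its width.

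The reverse case included the widest knockout peak of the autosomes. On chromosome 2 the 22264 bp knockout peak (105506519 to 105528782) faced control peaks of 21936 and 1183 bp with a gap of 786 bp, the longest of the reverse case. On chromosome 11 (120089967 to 120099956) a knockout peak of 9990 bp lay over control peaks of 2722, 796 and 6302 bp, with gaps of 65 and 6 bp. Knockout peaks over 3 control peaks also lay on chromosome 7 (28114265 to 28119331), with gaps of 91 and 179 bp, and on chromosome 5 (120119484 to 120123221), with gaps of 11 and 31 bp. Long gaps of 683 and 667 bp were found on chromosome 19 (9018399 to 9020132) and chromosome 15 (74346231 to 74350571). On chromosome 15 the 4341 bp knockout peak scored 3102, and its control fragments 690 and 1039.

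Short distances between neighbouring peaks were more frequent in the knockout list, and the excess lay in pairs bridged by a single peak of the other list. Bridged pairs are the gaps of the split domains and of the reverse case themselves, so their numbers and shares restate the rule and were not tested. It held 893 pairs of adjacent autosomal peaks less than 500 bp apart, and the control list held 591. A single control peak bridged 547 of these knockout pairs (61.3%, interval 58.0 to 64.5), while a single knockout peak bridged 146 of the control pairs (24.7%, interval 21.3 to 28.4). At less than 100 bp the pairs numbered 362 in the knockout list, of which 299 (82.6%) were bridged, and 191 in the control list, of which 73 (38.2%) were bridged. In 213 knockout pairs and 256 control pairs under 500 bp both peaks had partners in the other list without a shared one. The remaining 133 knockout and 189 control pairs were of neither kind. Outside the bridged pairs, close neighbours were thus not more numerous in the knockout list. Read depth is unknown for both libraries, its part in the number of gaps was not tested, and with 1 library of each genotype depth and genotype cannot be told apart.

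Split domains were spread over all 19 autosomes. Their share of control peaks ranged from 1.69% on chromosome 4 (24 of 1420, interval 1.09 to 2.50) to 3.76% on chromosome 17 (40 of 1064, interval 2.70 to 5.08). The share of split knockout peaks was lower on each autosome, from 0.291% on chromosome 19 (2 of 688) to 1.39% on chromosome 13 (13 of 932). Split domains often had a close neighbour: 116 (21.4%) lay within 1 kb of another control peak, against 6.98% of control peaks with exactly 1 knockout partner. From 2 to 3 kb of width these shares were 18.4% and 4.75%, and at 6 kb and wider 22.6% and 22.2%. The closest pair of split domains, 20 bp apart, lay on chromosome 3 at 57228204 to 57234229 and 57234250 to 57235743. The first of these also had 1 of the longest gaps, and the knockout peak after that gap overlapped both.

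The rule has no margin around its threshold of 1 bp. Just inside it were domains on chromosome 11 (4059486 to 4061938) and chromosome 17 (26054870 to 26057021), each with a second knockout peak that overlapped by 7 bp, and 1 on chromosome 8 (73013098 to 73014004) with 9 bp. Just outside it, the second knockout peak directly adjoined the border on chromosome 3 (88224981 to 88226308) and on chromosome 10 (81112110 to 81112553), and was 2 bp away from it on chromosome 10 (75295958 to 75299305). A second knockout peak lay within 10 bp of the border in 10 cases outside the rule and within 100 bp in 121, while 23 members had an overlap under 50 bp.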

How the data were processed

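H3K4me3 peak lists of 2 libraries were used, 1 per genotype. Bowtie, MACS 1.4.2 and build mm9 are named in the submitters' processing notes. Input use, filters and pooling were not given in the sources used here. Genotype, age and mark in a list's name tied it to its sample; the names also hold "2nd", which the labels leave unexplained. The score is the authors' deposited value per peak, with many ties at 3100, and read depth is unknown. Scores were used to describe single peaks. Where scores of both lists are printed together, no difference in H3K4me3 was computed from them.

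Positions are in mm9, counted from 1. Chromosomes X and Y and unplaced sequence were left out (682 knockout and 690 control peaks). Overlaps were counted with functions tested on simulated splits and checked against bedtools 2.31.1. Medians have order-statistic intervals and shares exact (Clopper-Pearson) 95% intervals. These treat peaks as independent and cover counting error within this pair of libraries, not variation between animals. No p-value was computed.

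Named regions were those with the most fragments (5), the longest gaps (5), the best-scored weakest fragment (5), gaps nearest the median (3), overlaps nearest the threshold (3 each side) and, in the reverse case, the most fragments and longest gaps (3 each). Ties in fragment number, fragment score or distance from the median gap went to the wider peak. Members and lists were chosen with earlier results of these data known. The gene table and promoter sequences at hand describe GRCm38, so genes and sequences were not analysed here.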

Additional observations from a re-analysis of the deposited data

How the results depend on the processing

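Of 45 recomputed values, 20 stayed close to the reported one (within 1.5 times for a count, inside the 95% interval for a median) and 25 moved. Under each alternative run, more control than knockout peaks were split, by 2.48 to 5.38 times. Requiring at least 50% of a partner inside left 85 split knockout peaks and a median control width of 3211 bp. An overlap of 200 bp gave a width of 3198 bp. Joining peaks less than 500 bp apart left 104 split control and 42 split knockout peaks, a median gap of 745.5 bp, 76.2% retained and a width of 4578 bp. Joining below 1000 bp left 90 and 27, with 1193 bp, 69.7% and 5006 bp. Joining below 200 bp, added after the gap lengths were seen, left 201 and 70, with 344 bp, 83.7% and 3792 bp. By construction, joining removes the short gaps. A score of at least 100 left 352 and 91. Peaks at or above their list's median score left 30 and 10, with a gap of 83.5 bp, 91.6% retained and a width of 4183 bp. Score limits take out the weak fragments. Equal numbers of peaks and all chromosomes moved none of the 5 values. No paired analysis was possible because there is 1 library of each genotype, and for the same reason none was left out. No annotation of mm9 was used, so start sites, base composition and repeats in gaps were not analysed. Read depth, which limits what passes the caller's threshold, is unknown.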

Other observations

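A small set of split domains combined a long gap with well-scored knockout peaks on both sides, and was singled out after its values were seen. Of the 28 domains with a total gap of 500 bp or more, 7 had no knockout peak scoring under 300. Over all 543 domains, the weakest piece scored 300 to under 1000 in 84, 1000 to under 3100 in 46, and 3100 or more in 11. The share among the 28 was thus near that of all domains. The gap lay in the middle (33.3 to 66.7% of the width) in 42.2% of all domains, and in 6 of these 7. One is the domain on chromosome 11 with a gap of 1193 bp described in the report. On chromosome 1 (74928261 to 74932935) knockout peaks of 1411 and 2106 bp with scores of 961 and 653 flanked a gap of 1097 bp in a control peak of 4675 bp. On chromosome 2 (147863868 to 147873222) knockout peaks of 1628 and 5230 bp scored 324 and 3100, and the gap in the 9355 bp control peak was 1026 bp. The domain on chromosome 4 (153513606 to 153517418) had knockout peaks of 1633 and 1477 bp with scores of 1404 and 2204 around a gap of 981 bp at 50.2% of the width. Further gaps of 684 and 570 bp lay in control peaks of 5442 bp (62748926 to 62754367) and 8770 bp (6719080 to 6727849) on chromosome 1. In the seventh, on chromosome 13 (88962196 to 88964138), a gap of 551 bp lay 17.4% from the start of a control peak that was 1943 bp wide and scored 342. Its knockout peaks scored 2469 and 544. The control peaks of the other 6 scored 2334 or more, and 59.7 to 80.8% of their length was retained.

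The least retained domains were picked by their retained length, so no separate kind can be read from them. In 5 members the knockout peaks covered under 50% of the control peak, and in 4 of them the loss at the borders was longer than the gap. None of these 5 had a weakest piece that scored 100 or more. Over all 543 domains, the gap exceeded the border loss in 236 (43.5%), and the weakest piece scored under 100 in 202 (37.2%).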
